A study of Mus musculus with 23 samples.

Results

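Mmp11 and Prss35 encode 2 secreted proteins of the protease families, and they were followed here across mouse skin tumours with and without an inducible TGF-beta transgene. They were chosen by gene symbol from the 6795 genes that the arrays named, because the bigenic to monogenic ratio had the same sign in every carcinoma pair that measured them. Each gene had 1 probe, and both genes were among the 6413 that had enough values to be tested. Because the carcinoma ratios chose the genes, those ratios are given below as a description, without a test. The choice by sign did not use the papilloma ratios, which were tested. Both classes shared 1 estimate of the spread in the fit, so the carcinoma values enter the fitted papilloma SEs, intervals and adjusted p-values.

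Mmp11, also called stromelysin-3, is a matrix metalloproteinase that is cleaved by furin-like convertases on its way out of the cell, so that it is secreted in active form, unlike most of its family. In carcinomas it is known as a product of the fibroblasts that lie against the tumour cells. Prss35 is a secreted member of the trypsin-like serine protease family whose catalytic serine is replaced, which makes it a protease-like protein by sequence. TGF-beta is a cytokine that restrains the growth of keratinocytes and drives fibroblasts to make and remodel matrix.

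The bigenic tumours came from mice of genotype K5rTA tetOTGFbeta, in which a keratin 5 promoter drives a tetracycline-regulated transactivator in basal keratinocytes and doxycycline then switches on the TGF-beta transgene. The monogenic tumours came from K5rTA mice, which carry the transactivator and lack the transgene. All mice were FVB adults with a labelled age of 7 to 12 weeks. All had skin tumours raised with 1 dose of 100 µg DMBA, a carcinogen, followed after 1 week by 5 µg of the tumour promoter TPA 2 times a week for 20 weeks. Both genotypes ate chow with 1 g/kg doxycycline for 48 h after a 3 h fast, so the drug was common to both sides of every ratio. Papillomas are the benign tumours of this protocol, which the labels date to weeks 12 to 14, and squamous cell carcinomas the malignant ones, dated to weeks 25 to 35. Of 23 2-colour arrays, 14 compared papillomas and 9 compared carcinomas. Averaging the arrays of the same 2 extracts left 11 papilloma pairs, of 8 bigenic and 7 monogenic tumours, and 7 carcinoma pairs, of 5 bigenic and 4 monogenic tumours. A pair is written below as bigenic with monogenic tumour, such as 170 with 242. The 7 monogenic papillomas carry 2 numbers, 2000 for 5 of them and 257 for 2, and tumours 228A, 228B and 228C also share one. Whether tumours of 1 number grew on 1 mouse is not stated. Several pairs shared a tumour, so the p-values, SDs and SEs measure the spread between pairs and make no allowance for that.

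The arrays give ratios and no levels, so neither the abundance of the 2 transcripts nor the presence of keratinocyte or stromal markers could be set against an absolute scale. A ratio from a piece of tumour also cannot tell fewer cells of a type from less RNA per cell. The sources used here do not say which dye is the numerator, nor the log base, which was taken as 2. Every ratio was turned to read as if the bigenic tumour were in Cy5. With Cy5 as the numerator, a positive value means more RNA in the bigenic tumour, and with Cy3 as the numerator it means less. The values below therefore have a side, positive or negative, and no stated biological direction. An array lacked 0.24% to 29.9% of its probes.

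The promoters of both genes are shown first, as a description. The shared side of the 2 ratios in the carcinomas is how the genes were chosen, and shared control was not tested. The sequences are the 250 bases before the RefSeq start in the mouse build GRCm38.p6, read 5′ to 3′ on the strand of the gene. That of Mmp11 is chr10:75932503-75932752 on the minus strand, and that of Prss35 is chr9:86743383-86743632 on the plus strand. The RefSeq gene record of Prss35 begins before its window, so another transcript may start upstream of it. Capitals mark every match, on either strand, to 1 of 4 short motifs. The GC box, bound by Sp factors, was searched as GGGCGG, and the Smad-binding element, bound by the transcription factors that carry the TGF-beta signal, as CAGAC. The AP-1 site, bound by Fos and Jun proteins, was searched as TGANTCA. The TATA box, which positions the transcription machinery, was searched as TATAAA. These motifs do not overlap one another in either window.
Mmp11: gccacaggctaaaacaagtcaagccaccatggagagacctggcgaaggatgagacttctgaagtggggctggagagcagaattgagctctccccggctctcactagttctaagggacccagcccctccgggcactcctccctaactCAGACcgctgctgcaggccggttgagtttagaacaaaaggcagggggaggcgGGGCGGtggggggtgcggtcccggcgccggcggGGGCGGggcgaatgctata
Prss35: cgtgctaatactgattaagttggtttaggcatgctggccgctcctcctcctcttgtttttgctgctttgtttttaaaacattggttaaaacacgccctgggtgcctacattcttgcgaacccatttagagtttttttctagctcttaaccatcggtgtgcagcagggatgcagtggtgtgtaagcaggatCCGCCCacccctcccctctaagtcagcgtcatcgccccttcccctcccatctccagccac
The Mmp11 window held the GC box 2 times and the Smad-binding element 1 time. The Prss35 window held 1 GC box, on the opposite strand, and neither window held the letters of the AP-1 site or the TATA box. Among all 32851 promoters of the table, 32.7% held the GC box, 42.2% the Smad-binding element, 6.75% the AP-1 site and 12.4% the TATA box in the same 250 bases. G and C made up 63.2% of the Mmp11 window and 50.8% of that of Prss35, against a median of 52.4%. These matches describe letters and are not evidence of binding.

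In carcinomas, Mmp11 lay on the positive side in 6 of 6 measured pairs. Its log2 ratio was 2.52 in pair 170 with 242, 1.72 in 1684A with 242, 1.65 in 236 with 257A, 1.40 in 236 with 241A, 0.74 in 237 with 257A and 0.29 in 237 with 241A. Both pairs with bigenic tumour 237 were low, and the other 4 stood well above them. Pair 1687 with 221 had no value for either gene. Among the measured pairs, tumours 236, 237, 241A, 242 and 257A were each used again in another pair. For both genes, the 6 pairs are therefore not independent replicates. The mean over pairs was 1.39 ± 0.79 (SD, n = 6), and the fitted mean, which weights a pair by its arrays, was 1.28 ± 0.23 (SE), a ratio of 2.44 on a linear scale.

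Prss35 was also positive in 6 of 6 measured carcinoma pairs, with a different order of the pairs. Its log2 ratio was 2.79 in pair 170 with 242, 1.46 in 237 with 241A, 1.15 in 236 with 257A, 1.08 in 237 with 257A, 0.84 in 236 with 241A and 0.75 in 1684A with 242. Pair 170 with 242 was the highest for both genes, whereas pair 1684A with 242 ranked next for Mmp11 and last for Prss35. The mean was 1.34 ± 0.75 (SD, n = 6) and the fitted mean 1.33 ± 0.20 (SE), a ratio of 2.52 on a linear scale. Without bigenic tumour 170 the fitted mean of Prss35 was 1.13 ± 0.17 (SE).

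These values chose the genes, so they are not a result in themselves. Of the 6413 genes, 97 (1.51%) were positive in every carcinoma pair that measured them and 125 (1.95%) were negative in every one. Only 4 of the 97 (0.0624% of all genes) also had a fitted mean of at least 1, these 2 among them. By the fitted carcinoma mean alone, Prss35 ranked 5 and Mmp11 ranked 8 from the positive end. The lowest single pair value inside the choice was 0.29, for Mmp11. Just outside it on the positive side, with 1 pair on the negative side, lay 7 genes of the protease and inhibitor lists. How many of all genes lay as near was not counted. The metalloproteinases Mmp17 and Mmp23, the metalloproteinase inhibitor Reck, the serine protease Prss23 and the serpins Serpinf1 and Serping1 were positive in 6 of 7 pairs, and Mmp12 in 5 of 6. As near on the negative side, from the same lists, Dpp4 and Spint2 were positive in 1 of 7 pairs, Serpini1 in 1 of 6 and F2 in 1 of 5.

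**Figure D1:**
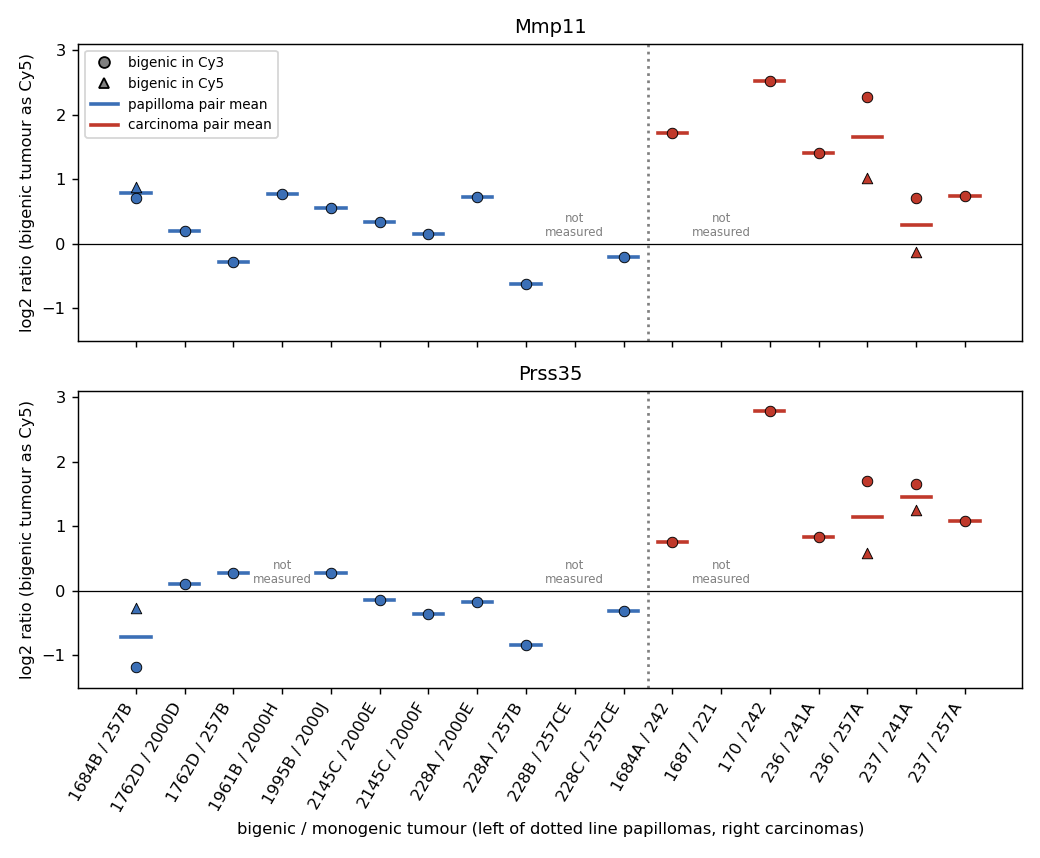
Log2 ratio of Mmp11 (top) and Prss35 (bottom) in each pair of tumours, with papillomas left of the dotted line and carcinomas right of it. Points are arrays, circles with the bigenic tumour in Cy3 and triangles with it in Cy5, and bars are pair means. The 6 measured carcinoma pairs of Prss35 lie above all its papilloma pairs, while those of Mmp11 overlap with its papilloma pairs.

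Single arrays showed a limit that the pair means hide. Prss35 was positive on 8 of 8 carcinoma arrays, from 0.59 to 2.79, but Mmp11 on 7 of 8. The exception was the array of 237 with 241A that had the bigenic tumour in Cy5, at -0.13, against 0.71 for the same 2 extracts with the dyes the other way. In pair 236 with 257A, Mmp11 stood at 2.28 with the bigenic tumour in Cy3 and at 1.02 with it in Cy5. For Prss35 these values were 1.70 and 0.59 in that pair, and 1.66 and 1.26 in 237 with 241A. Both genes were thus lower in the Cy5 orientation in both carcinoma pairs. In 1684B with 257B, the papilloma pair with both orientations measured, both were higher in it, at 0.89 against 0.71 for Mmp11 and -0.26 against -1.18 for Prss35. A dye effect fitted per gene was -0.52 ± 0.37 (SE) for Mmp11 and -0.30 ± 0.35 for Prss35, with adjusted p of 0.491 and 0.681 (limma). With that term the carcinoma means were 1.18 ± 0.25 and 1.26 ± 0.24. The term was shared by both classes. In carcinoma pairs 236 with 257A and 237 with 241A, Cy3 minus Cy5 was 1.27 and 0.85 for Mmp11. For Prss35 it was 1.11 and 0.41. In papilloma pair 1684B with 257B it was -0.18 for Mmp11 and -0.92 for Prss35. Carcinoma pairs 170 with 242, 1684A with 242, 236 with 241A and 237 with 257A had the bigenic tumour in Cy3 only. The fit therefore cannot tell how far a dye effect enters those pairs. Across all probes the arrays of a carcinoma pair in both orientations, once turned, correlated at Pearson's r of 0.21 and 0.12. For the 3 papilloma pairs r was 0.33 for 1684B with 257B, -0.05 for 228A with 257B and 0.03 for 228B with 257CE. In 228A with 257B both genes were measured on the Cy3 array alone.

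Among the probes of an array, Prss35 stood between the percentiles 83.0 and 99.8 on the 8 carcinoma arrays, with a median of 99.2. Mmp11 stood between 38.1 and 99.8, with a median of 98.3, and its lowest percentile belonged to the array on the negative side. In papillomas the median percentile was 85.1 for Mmp11 over 11 arrays and 27.8 for Prss35 over 10.

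In the carcinomas, 4 tumours were measured in every combination, bigenic 236 and 237 each against monogenic 257A and 241A. This gives the difference between the bigenic tumours along 2 routes. All signs here turn if Cy3 is the numerator. For Mmp11, the value of 236 minus that of 237 was 0.91 through 257A and 1.11 through 241A, so both routes gave the same side. For Prss35 it was 0.06 through 257A and -0.62 through 241A, so the routes did not give the same side. The routes would match exactly without measurement error or dye effects. They differed by 0.20 for Mmp11 and 0.68 for Prss35, where the median gap over 6082 genes was 0.95, and 88.9% and 62.8% of those genes had a larger gap. Pairs 236 with 257A and 237 with 241A averaged both dye orientations. Pairs 236 with 241A and 237 with 257A had the bigenic tumour in Cy3 only, so a dye effect enters this gap. On the Cy3 arrays alone, Mmp11 stood at 2.28 in 236 with 257A and 0.71 in 237 with 241A, against pair means of 1.65 and 0.29. For Prss35 these were 1.70 and 1.66, against 1.15 and 1.46. Through monogenic tumour 242, the value of bigenic tumour 170 minus that of 1684A was 0.80 for Mmp11 and 2.04 for Prss35.

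In papillomas neither gene passed the test, and the 2 genes leaned to opposite sides. The pairs of Mmp11 had a lowest log2 ratio of -0.63, a median of 0.27 and a highest of 0.80, with 7 of 10 positive. Those of Prss35 had a lowest of -0.83, a median of -0.17 and a highest of 0.28, with 3 of 9 positive. Both spreads straddled 0. The means were 0.24 ± 0.49 (SD, n = 10 pairs) for Mmp11 and -0.21 ± 0.40 (SD, n = 9 pairs) for Prss35.

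The fitted papilloma value of Mmp11 was 0.30 ± 0.20 (SE), with a 95% confidence interval of -0.11 to 0.70 and an adjusted p of 0.648 (limma). That of Prss35 was -0.26 ± 0.18, with an interval of -0.63 to 0.12 and an adjusted p of 0.677 (limma). With the classes fitted separately the values were 0.30 ± 0.15 and -0.26 ± 0.14 (SE, adjusted p = 0.480 and 0.516, limma). An exact sign-flip permutation test over pairs, two-sided, gave p = 0.148 for Mmp11 and p = 0.160 for Prss35. In all, 4 of the 6413 genes (0.0624%) passed an adjusted p of 0.05 in papillomas, 2 on each side (0.0312%), and 628 had an unadjusted p under 0.05. Positive in every measured papilloma pair were 30 genes (0.468%) and negative in every one 26 (0.405%), neither of these 2 among them. By the number of the monogenic tumour, Mmp11 was positive in 6 of 6 pairs of number 2000, from 0.16 to 0.77, and in 1 of 4 pairs of number 257, from -0.63 to 0.80. Prss35 was positive in 2 of 5 and 1 of 4. With that number as a random block, an alternative chosen after seeing the data, the values were 0.30 ± 0.21 (SE) and -0.26 ± 0.19 (adjusted p = 0.788 and 0.80, limma). The papilloma pair of 228B with 257CE measured neither gene, and 1961B with 2000H did not measure Prss35.

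The labels number each array in the authors' database, and the numbers fall into 3 ranges, whose meaning is not given. Mmp11 stood at 0.41 ± 0.29 (SE) on the papilloma arrays of range 1, at -0.07 ± 0.37 in range 2 and at 0.38 ± 0.37 in range 3. Prss35 stood at -0.03 ± 0.28, -0.76 ± 0.32 and -0.01 ± 0.32 (adjusted p of 0.997, 0.343 and 0.997, limma). All measured carcinoma arrays lay in range 2, so carcinomas could not be compared between ranges. In that range the carcinoma values were 1.32 ± 0.24 for Mmp11 and 1.34 ± 0.21 for Prss35.

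Set side by side, the fitted ratio was 0.99 ± 0.30 (SE) larger in carcinomas than in papillomas for Mmp11 and 1.59 ± 0.27 larger for Prss35, again without a test because the carcinoma values chose the genes. For Prss35 the lowest carcinoma pair, 0.75, stood above the highest papilloma pair, 0.28. For Mmp11, 4 of 6 carcinoma pairs stood above the highest papilloma pair, and both pairs of tumour 237 fell among the papillomas. Without tumour 237 the Mmp11 difference was 1.49.

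Between the 2 genes, Pearson's r was 0.15 and Spearman's rho 0.05 over the 9 papilloma pairs that measured both, with 4 pairs on the same side. Within the 6 carcinoma pairs r was 0.48 and rho 0.03. Over all 15 pairs r was 0.74 and rho 0.57, a value to which the choice of genes positive in every carcinoma pair contributes. Without pair 170 with 242, which had the highest values of both, r over the remaining carcinoma pairs was -0.78 (n = 5) and over all remaining pairs 0.55 (n = 14). These pairs share arrays and tumours, so the correlations are descriptive.

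Other metalloproteinases and their inhibitors were read from lists beside the 2 genes. Of 22 other matrix metalloproteinases listed, 9 were on the array and 7 were tested. In carcinomas 6 of the 7 were positive with a median of 0.37, where 49.1% of all genes were positive with a median of -0.01. None of the 7 passed an adjusted p of 0.05 (limma, 3 unadjusted), as 6 of 6413 genes (0.0936%) did, 2 of them on the positive side (0.0312%). Over all 6413 genes, 694 had an unadjusted p under 0.05 in carcinomas (limma), 285 of them positive and 409 negative. Mmp2, a gelatinase of stromal cells, stood at 0.86 ± 0.30 (SE), Mmp12, the macrophage elastase, at 0.72 ± 0.27 and Mmp23 at 0.58 ± 0.19, with adjusted p of 0.266, 0.298 and 0.257 (limma). Mmp9, a gelatinase of leukocytes and keratinocytes, stood on the other side at -0.56 ± 0.36 (adjusted p = 0.597, limma). In papillomas all 7 were positive with a median of 0.29, against 53.9% of all genes and a median of 0.02. None passed (limma, 2 unadjusted), with Mmp9 at 1.28 ± 0.29 (adjusted p = 0.101) and Mmp12 at 0.49 ± 0.20 (adjusted p = 0.444).

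**Figure D2:**
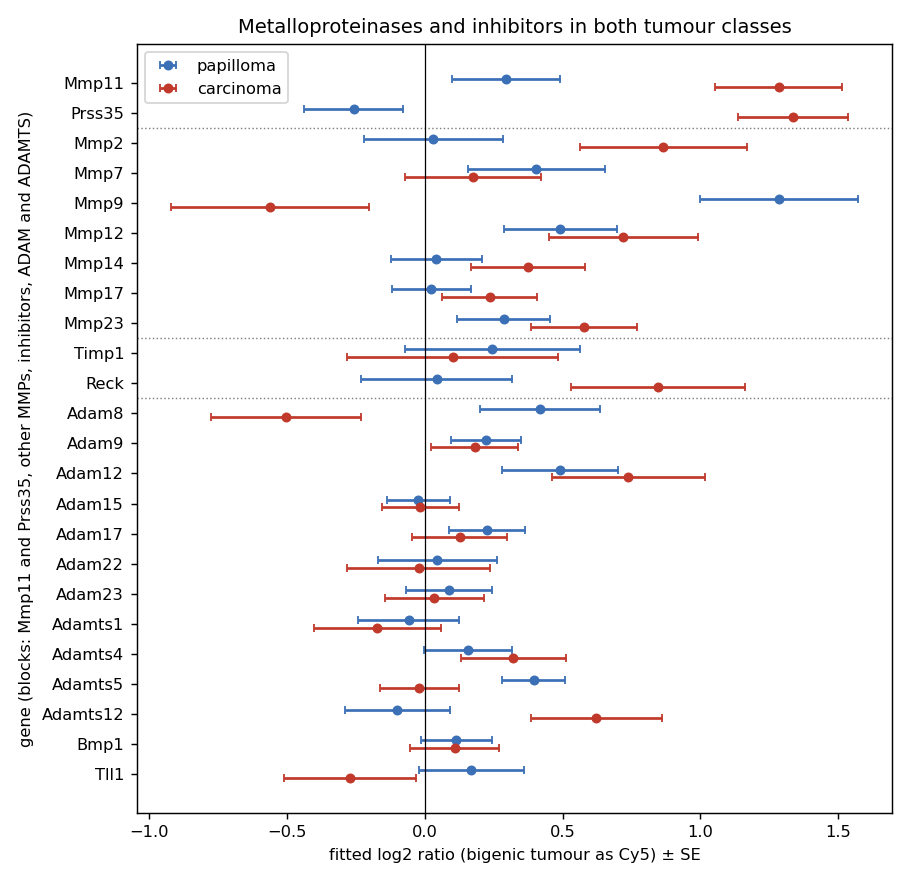
Fitted log2 ratio with its SE for Mmp11 and Prss35, the other matrix metalloproteinases, the inhibitors Timp1 and Reck, the ADAM and ADAMTS genes and the tolloid proteases Bmp1 and Tll1, in papillomas (blue) and carcinomas (red). The carcinoma values of Mmp11 (1.28) and Prss35 (1.33) lie to the right of those of the other genes drawn, among which Mmp2 stands at 0.86, but these 2 were chosen on that side.

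Of the inhibitors, Timp1 stood at 0.10 ± 0.38 (SE) in carcinomas and Reck at 0.85 ± 0.32 (adjusted p = 0.963 and 0.298, limma), and in papillomas at 0.25 ± 0.32 and 0.04 ± 0.27. Of 6 listed convertases of the furin family, which can cut the Mmp11 precursor, only Pcsk5 was among the genes that the arrays named. It stood at 0.78 ± 0.27 in carcinomas (adjusted p = 0.266, limma) and 0.11 ± 0.23 in papillomas. Its carcinoma pairs ran from -0.26 to 2.76, with 5 of 7 positive. Of 11 ADAM and ADAMTS genes tested, 6 were positive in carcinomas and 8 in papillomas, and none passed in either class (limma, 2 unadjusted in each). The tolloid proteases Bmp1 and Tll1, listed with them, did not pass either (limma, 0 unadjusted). Tll1 was negative in all 5 carcinoma pairs that measured it, at -0.27 ± 0.24 (adjusted p = 0.741, limma). Adamts12, a secreted metalloproteinase, was the 1 gene of these 13 positive in all 7 carcinoma pairs, at 0.62 ± 0.24 (adjusted p = 0.301), and Adam12, a metalloproteinase of mesenchymal cells, stood at 0.74 ± 0.28 there and at 0.49 ± 0.21 in papillomas (adjusted p = 0.298 and 0.472). Adam8, a leukocyte metalloproteinase, stood at -0.50 ± 0.27 in carcinomas and 0.42 ± 0.22 in papillomas (adjusted p = 0.501 and 0.549). Adamts5, an aggrecan-cleaving protease, stood at 0.39 ± 0.11 in papillomas (adjusted p = 0.22).

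The serine proteases are the family of Prss35. Of 23 tested, 9 were positive in carcinomas with a median of -0.04, and 17 in papillomas with a median of 0.17. None passed in carcinomas (limma, 3 unadjusted, of which 1 was positive) or in papillomas (2 unadjusted). Htra3, a secreted serine protease of stroma, stood at 0.66 ± 0.24 (SE) in carcinomas and Klk1, a kallikrein, at 0.37 ± 0.21, the latter positive in 7 of 7 pairs (adjusted p = 0.278 and 0.524, limma). Plau, the urokinase, stood at -0.64 ± 0.26 in carcinomas and 0.98 ± 0.21 in papillomas, and Dpp4, a membrane peptidase, at -0.65 ± 0.23 in carcinomas (adjusted p = 0.352, 0.080 and 0.267, limma). Prss12, another secreted member, stood at 0.78 ± 0.23 in papillomas (adjusted p = 0.224). Among 14 serpins and other serine protease inhibitors, 8 were positive in carcinomas and 7 in papillomas, with none past the threshold (limma, 3 unadjusted in each). Serpinb2, an inhibitor of urokinase, stood at 0.65 ± 0.26 in carcinomas and -0.79 ± 0.20 in papillomas (adjusted p = 0.316 and 0.165), the reverse of Plau. Spint2, an inhibitor of membrane-bound serine proteases, stood at -0.72 ± 0.23 in carcinomas (adjusted p = 0.214). Serping1, the inhibitor of complement C1, stood at 0.77 ± 0.35 in carcinomas (adjusted p = 0.426). Serpina3n and Slpi, a secreted inhibitor of leukocyte elastase, stood at 0.61 ± 0.27 and -1.01 ± 0.45 in papillomas (adjusted p = 0.478 for each).

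Fibroblast and matrix genes, the cell type for which Mmp11 is known, had 19 of 21 tested members positive in carcinomas with a median of 0.37, and 5 of 21 in papillomas with a median of -0.12. None passed in either class (limma, 7 unadjusted in carcinomas and 0 in papillomas). Of all 6413 genes, 694 and 628 had an unadjusted p under 0.05 in these classes (limma). Mfap5, a microfibril protein, stood at 1.31 ± 0.39 (SE) in carcinomas, Tnc, the matrix glycoprotein tenascin C, at 0.84 ± 0.26, and Lox, which cross-links collagen, at 0.62 ± 0.19, with adjusted p of 0.188, 0.204 and 0.196 (limma). Those of smallest p in papillomas were Mfap5 at 0.63 ± 0.37, Acta2, the smooth muscle actin of myofibroblasts, at -0.26 ± 0.18, and Pdgfra, a receptor of fibroblasts, at 0.19 ± 0.14 (adjusted p = 0.603, 0.657 and 0.715, limma). The mean of the list by pair ran from -0.08 to 0.93 in carcinomas and from -1.39 to 0.83 in papillomas. It did not order the carcinoma pairs as either gene did. In 236 with 257A the list mean was -0.08 while Mmp11 stood at 1.65 and Prss35 at 1.15, and in 237 with 241A it was 0.71 while Mmp11 stood at 0.29. Pair 170 with 242 was highest for the list, at 0.93, and for both genes.

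**Figure D3:**
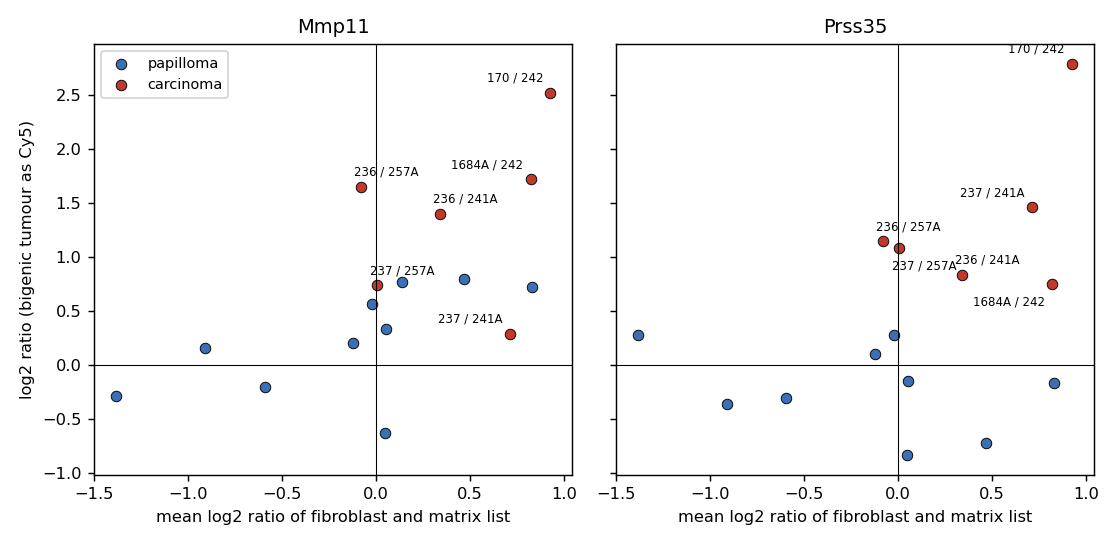
Log2 ratio of Mmp11 (left) and Prss35 (right) against the mean log2 ratio of 21 fibroblast and matrix genes, a point for each pair, papillomas in blue and carcinomas in red with tumour names. Carcinoma pair 236 with 257A has a list mean of -0.08 and ratios of 1.65 and 1.15, and pair 170 with 242 is highest on all 3 measures.

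Markers of other cell types also differed between pairs, and their part in the values of the 2 genes was not tested. Macrophage genes had 14 of 17 positive in carcinomas with a median of 0.50 and 16 of 17 in papillomas with a median of 0.24. Of the 17, 9 on the positive and 1 on the negative side had an unadjusted p under 0.05 in carcinomas (limma). In papillomas 1 on the positive and 0 on the negative side did. Their carcinoma list mean ran from -0.67 in 236 with 241A to 1.40 in 170 with 242 and was positive in 4 of 7 pairs. Skeletal muscle genes had 14 of 16 positive in carcinomas with a median of 0.30 and 15 of 16 in papillomas with a median of 0.54. Their carcinoma list mean ran from -1.30 in 237 with 257A, where Mmp11 stood at 0.74 and Prss35 at 1.08, to 2.45 in 1687 with 221, which measured neither gene, with 1.57 in 170 with 242. That mean was positive in 4 of 7 pairs. The list taken as basal keratinocyte genes holds Krt5, whose promoter drives the transactivator, and also the keratins Krt6a, Krt16 and Krt17. It had 1 of 11 positive in carcinomas and 1 of 11 in papillomas, with medians of -0.32 and -0.10. Endothelial genes had 8 of 9 positive in carcinomas and 4 of 9 in papillomas, and lymphocyte genes 9 of 10 and 8 of 10. Suprabasal keratinocyte genes had 5 of 7 positive in carcinomas and 0 of 7 in papillomas. Neutrophil genes had 3 of 7 positive in carcinomas and 5 of 7 in papillomas, adipocyte genes 4 of 5 in both, and mast cell genes 3 of 4 and 4 of 4. By pair, the adipocyte list mean was positive in only 3 of 7 carcinoma and 2 of 11 papilloma pairs. That of mast cells was positive in 3 of 7 and 6 of 11. The genes of a list share the same pairs, so counts of genes are not counts of replicates. Of these cell type lists, 1 member passed in carcinomas, where 6 of 6413 genes (0.0936%) did. No member passed in papillomas, where 4 genes (0.0624%) did. The 1 member was the macrophage gene Chil3, at -3.53 ± 0.50 (SE, adjusted p = 0.00303, limma), on the negative side.

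TGF-beta pathway and response genes had 14 of 23 positive in carcinomas with a median of 0.05 and 12 of 23 in papillomas with a median of 0.06, none of them past the threshold (limma, 4 unadjusted in carcinomas and 6 in papillomas). Tgfbr2, the type II receptor, was positive in 7 of 7 carcinoma pairs at 0.51 ± 0.14 (SE), and Ltbp2, which belongs to the family of latent TGF-beta binding proteins, stood at 0.63 ± 0.22 (adjusted p = 0.141 and 0.271, limma). Bhlhe40, a transcription factor, was negative in 7 of 7 carcinoma pairs at -0.77 ± 0.24 and stood at 0.80 ± 0.20 in papillomas (adjusted p = 0.22 and 0.13). Smad7, the inhibitory Smad, stood at 0.05 ± 0.22 in carcinomas and 0.61 ± 0.18 in papillomas, and Tgfbi, a matrix protein named for its induction by the cytokine, at 0.19 ± 0.22 and 0.60 ± 0.18 (adjusted p = 0.22 and 0.224 in papillomas). On the other side in papillomas stood Id1, a regulator of differentiation, at -0.47 ± 0.20, and Ccn1, a matricellular protein, at -0.31 ± 0.18 (adjusted p = 0.444 and 0.601).

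The genes whose ratios ran most like those of Mmp11 were found by Pearson's r over pairs, among 5912 genes that shared at least 15 measured pairs with it. These pairs span both classes, so the carcinoma values that chose Mmp11 and Prss35 enter every such r. These were Cpt2, a mitochondrial enzyme of fatty acid oxidation (r = 0.85), Fgfr1, a fibroblast growth factor receptor (0.80), Lrrc15, a membrane protein of activated fibroblasts (0.79), Got1, an aspartate aminotransferase (0.78), and Msl3, a chromatin protein (0.77). Lrrc15 stood at 0.51 ± 0.26 (SE) in carcinomas and -0.40 ± 0.22 in papillomas, and its r with Mmp11 was 0.94 over the 6 carcinoma pairs and 0.43 over the papilloma pairs. Least like Mmp11 were Vegfa, the vascular growth factor (r = -0.79), 4931428F04Rik (-0.78) and Gm20815 (-0.78). Vegfa stood at -0.97 ± 0.25 in carcinomas and 0.33 ± 0.20 in papillomas.

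For Prss35, among 5064 genes, the most alike were Cpxm2, a secreted carboxypeptidase-like protein (r = 0.89), Spon1, the matrix protein spondin 1 (0.82), 1700037H04Rik (0.74), Mmp11 (0.74) and Efemp1, a fibulin of elastic matrix (0.73), each over 15 pairs. Cpxm2 stood at 0.84 ± 0.20 (SE) in carcinomas and -0.39 ± 0.17 in papillomas, and Spon1 at 0.87 ± 0.18 and -0.04 ± 0.14. Within the papillomas alone r with Prss35 was 0.66 for Cpxm2, 0.55 for Spon1 and 0.72 for Efemp1, but -0.29 for 1700037H04Rik and 0.15 for Mmp11. Without pair 170 with 242, r was 0.83 for Cpxm2, 0.71 for Spon1 and 0.45 for Efemp1. Least like it were Map3k1, a kinase of the stress pathways (r = -0.81), Dgat1, which makes triglycerides (-0.78), and Fbxo33, an F-box protein (-0.78). In the other direction, Prss35 ranked 11 among the genes most like Mmp11.

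**Figure D4:**
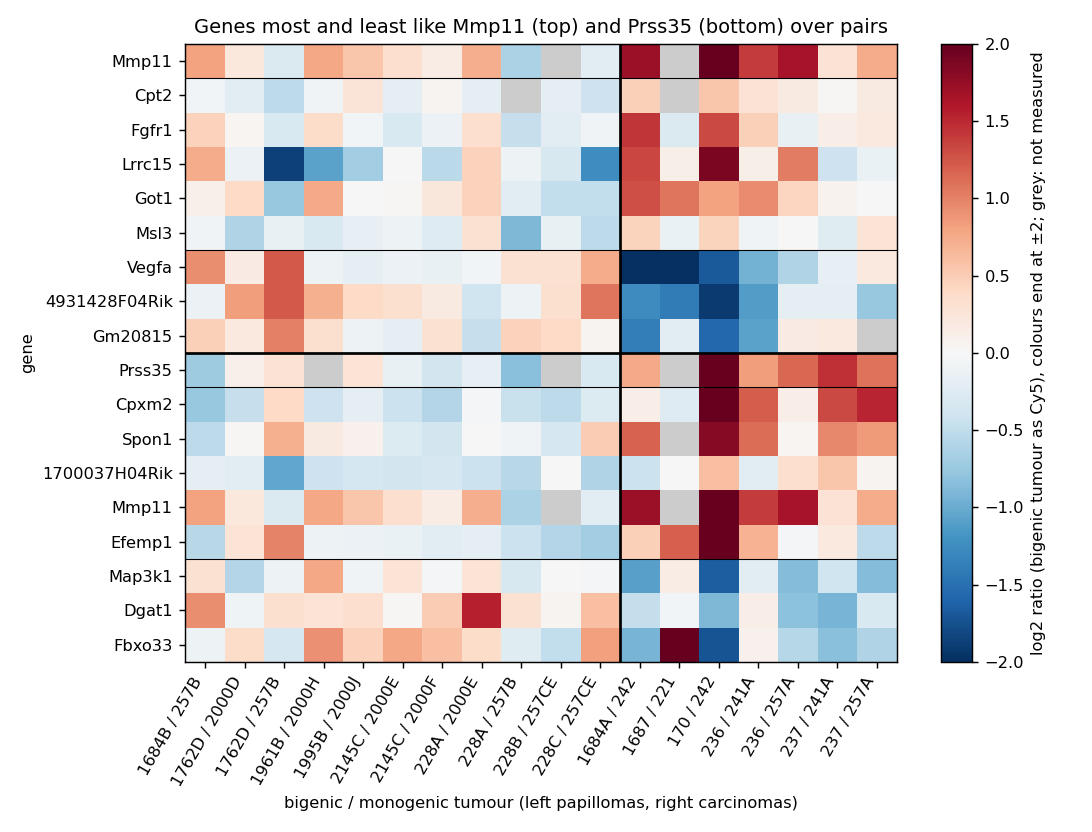
Log2 ratio, as colour, of Mmp11 with its 5 most and 3 least alike genes (top block) and of Prss35 with its 5 most and 3 least alike (bottom block) in each pair, papillomas left of the thick line and carcinomas right of it. In pair 170 with 242, Mmp11 (2.52) and Prss35 (2.79) exceed the end of the colour scale, and grey cells were not measured.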

How the data were processed

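The value table deposited by the authors holds 1 signed ratio per probe and array, taken here as log2. Scanner, background correction, normalization and log base were not named in the labels or headers and remain unknown here. Array medians as deposited ran from -0.34 to 0.01. Per the labels' protocols, TRIzol RNA was cleaned on a column and labelled with Cy3 or Cy5 by aminoallyl coupling. The bigenic tumour was in Cy3 on 18 arrays and in Cy5 on 5.

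Each array was centred on its median and turned by its labelled dyes. Of 9596 probes, the 7486 with 1 symbol in the platform annotation were averaged per gene, while 483 had several symbols and 1627 no entry. Repeat arrays of a tumour pair were averaged. Genes with at least 8 papilloma and 5 carcinoma pairs were fitted with limma 3.58.1 in R 4.3.3, with 1 mean per class and weights by number of arrays, eBayes moderation and Benjamini-Hochberg adjustment over 6413 genes. The fit was run on simulated data with independent noise in every pair. Those data held no shared tumours and no dye effect, so they cannot show how the fit behaves with them. Confidence intervals use the moderated error. The number of arrays limits the precision.

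Named are, besides the 2 genes, list members past the threshold and the 5 genes most and 3 least alike. Up to 3 of smallest p per class were named in the protease, inhibitor, convertase, fibroblast and TGF-beta lists. Genes of one sign in every carcinoma pair were named in the matrix metalloproteinase, metalloproteinase inhibitor and serine protease lists. Genes just outside the choice, Id1, Ccn1 and Tll1 were picked after their values were seen, as were the tumours 170 and 237 singled out. The genes and lists were chosen with earlier results of these data known. Alternatives covered centring, spread, quantile normalization, probes, weights, shared tumours, dye, filters, experiment-number ranges and each tumour left out.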

Additional observations from a re-analysis of the deposited data

Results flagged for a closer look

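Prss35 in pair 170 with 242 stood at 2.79 on the log2 scale, far from the other 5 carcinoma pairs, which ran from 0.75 to 1.46. Its gap to the next pair was 0.65 of the whole range of the 6 pairs, and it is listed here because that share was above 0.625. Because the carcinoma ratios chose the gene, this is a description and no test. The pair was measured on 1 array, with the bigenic tumour in Cy3. Without it the fitted carcinoma mean of Prss35 was 1.13.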

How the results depend on the processing

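In carcinomas the value ran from 1.01 to 1.79 for Mmp11 and from 1.13 to 1.83 for Prss35 over 40 alternatives. The choice of genes fixes that side, and 17 of the 24 omissions of a tumour left the carcinoma values as they were. Neither passed an adjusted p of 0.05 in papillomas under any of 42 refits (limma), the lowest being 0.345 and 0.343. Prss35 kept its negative side there, and Mmp11 changed side in 1, within experiment-number range 2, at -0.0714. The fit with a dye term gave Mmp11 0.05 ± 0.25 (SE) in papillomas. When tumours were left out singly, the papilloma value ran from 0.18 (without 1684B) to 0.37 for Mmp11 and from -0.37 to -0.10 (without 257B) for Prss35. The carcinoma minus papilloma difference ran from 0.70 to 1.49 for Mmp11 and from 1.39 to 2.10 for Prss35. With the array number as a replicate block it was 1.07 and 1.87, although same-numbered arrays of the 2 classes deviated together with r from -0.32 to 0.16, so the numbers do not pair them. Filtering to genes measured in every pair removed both genes. Chosen after seeing the data, leaving out pair 170 with 242 took the Pearson r between them from 0.74 to 0.55.

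The background counts moved more. The 4 papilloma calls became 41 with equal spread on every array, 40 with quantile normalization, 26 with the bigenic tumour in Cy3 only, 19 with the experiment-number range as a fixed term, 9 within range 1, 7 within range 3, 8 with the monogenic tumour as a random block, 2 with all pairs weighted equally, 1 with each probe by itself, the linked group as the replicate or, added after seeing the data, the monogenic tumour number as a random block, and 0 with a tumour share of 0.2, the bigenic tumour as the replicate or genes measured in every pair (limma, 324, 616 and 483 unadjusted). The 6 carcinoma calls became 219 with the bigenic tumour in Cy3 only, 170 within range 3, which holds 1 carcinoma array, 44 with all pairs weighted equally, 29 within range 2, 20 with the monogenic block, 2 with a tumour share of 0.2 or the range as a fixed term, 1 with the linked group as the replicate or genes measured in every pair, and 0 with classes fitted separately (limma, 499 unadjusted). With a tumour left out, papilloma calls ran from 0 to 7 and carcinoma calls from 3 to 95. Papilloma calls were 0 without 1762D, 1961B, 2145C, 2000D, 2000E, 2000H or 257CE (limma, 442 to 745 unadjusted), 1 without 170, 1995B, 228A, 228B, 2000J or 257A, 2 without 1684B, 228C, 237 or 257B, and 7 without 1687, 221 or 242. Carcinoma calls were 95 without 257A, 49 without 236, 18 without 257B, 17 without 1687 or 221, 11 without 237 and 3 without 241A. The cause was not tested.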
